A study of Mus musculus with 8 samples.

Results

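Enzymes that detoxify quinones, carbonyls and epoxides were followed in mouse activated hepatic stellate cells (AHSC) and in bone marrow-derived macrophages (BMDM) with and without auranofin, a gold-containing anti-rheumatic drug. The 10 genes were chosen by name as phase 1 and phase 2 enzymes outside the glutathione transferases, with earlier results of these data known. All 10 are listed in both deposited tables, among 18645 genes for AHSC and 17408 genes for BMDM. The AHSC were isolated from livers of C57BL/6 mice by collagenase perfusion and a Ficoll/Percoll gradient, activated in culture, and compared as untreated (vehicle) cultures against cultures given 0.03 µM auranofin for 12 h. The BMDM were grown for 7 days with M-CSF from the marrow of male C57BL/6 mice aged 8 weeks. Both BMDM groups carried the inflammasome stimulus, LPS at 100 ng/ml followed by 1 mM ATP, and received vehicle or auranofin for 1 h. The dose for BMDM is 0.1 µM by the sample labels and 0.3 µM by the paper. Each of the 4 groups had 2 libraries (n = 2), numbered replicate 1 and 2. Nothing in the labels says that they came from separate cultures or animals, so that every p-value measures only the spread between these libraries, which may be technical. Poly(A) RNA was sequenced, and the values are FPKM, the fragments of a gene scaled to the length of its transcript and to the size of the library, so that levels of different genes can be compared per length.

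These enzymes turn reactive molecules into products that are less reactive or more easily excreted. NQO1 and NQO2 reduce quinones to hydroquinones without releasing the semiquinone radical. Aldo-keto reductases and carbonyl reductases reduce aldehydes and ketones to alcohols, PTGR1 reduces the reactive double bond of enones, EPHX1 adds water to epoxides, AOX1 oxidises aldehydes and nitrogen heterocycles with a molybdenum cofactor, and UGDH makes the UDP-glucuronate that glucuronidation consumes. NQO1 is a textbook target of NRF2, the transcription factor that is stabilised by electrophiles and oxidants and binds antioxidant response elements, and in the liver this class of enzymes is best known from hepatocytes.

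Estimated depths were between 30000000 and 39700000 fragments for the AHSC libraries and between 27700000 and 35000000 for the BMDM libraries. They are approximate, because only 39.7% to 46.0% of the low values used lay within 0.05 of a whole number of fragments. In AHSC, pairs of libraries differed by at least 2-fold in 13 to 35 of the 6430 genes whose mean reached 10 FPKM. In BMDM, auranofin replicate 1 stood apart: it differed by at least 2-fold from each of the other 3 libraries in 368 to 383 of 4245 such genes, whereas those 3 differed from each other in 12 to 15. Every BMDM result is therefore given for both auranofin libraries separately. Averaged over the 4 AHSC libraries, all 12 stellate cell markers were above 1 FPKM (summed level 4634 to 4755 FPKM with vehicle and 4087 to 4153 with auranofin). So were 14 of 15 macrophage markers (summed level 9864 to 9974 and 9803 to 9892 FPKM) and all 10 endothelial markers (375 to 391 and 360 to 380 FPKM). None of 12 hepatocyte markers had a mean of 1 FPKM, although albumin (Alb) was at 1.22 FPKM in vehicle replicate 2, and 9 of them were listed, summing to 1.67 to 2.84 and 1.68 to 1.81 FPKM. No tested marker of these 4 lists was past the thresholds for a change given below, but the hepatocyte markers were too low to be tested. Above 0 were 3 of 12 stellate cell markers (median log2 fold change -0.14), 4 of 14 macrophage markers (-0.03) and 5 of 10 endothelial markers (-0.01). Of all 12149 genes tested in AHSC, 6346 were above 0. The AHSC cultures therefore held macrophage and endothelial transcripts, and their macrophage markers summed to more than their stellate cell markers. Which cells carried the enzyme mRNAs cannot be told from these libraries. In the BMDM libraries the macrophage markers summed to 8866 to 9049 FPKM with vehicle and 9078 to 9847 FPKM with auranofin, and the stellate markers to 10.4 to 13.4 and 10.6 to 16.5 FPKM. Endothelial markers summed to 69.2 to 71.8 and 40.2 to 70.4 FPKM there, and hepatocyte markers to 1.04 to 3.98 and 0.158 to 4.22 FPKM.

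In vehicle-treated AHSC the epoxide hydrolase had the highest listed value of the 10 genes. Ephx1 (chr1:180989556-181017569, mm10) had a mean of 100.2 FPKM, followed by Akr1b8 (chr6:34354146-34368461) with 51.9 FPKM. Cbr1 (chr16:93607837-93610349) and Ugdh (chr5:65413207-65435842), with 39.6 and 38.8 FPKM, overlapped in their vehicle libraries, as did Cbr3 (chr16:93683219-93690991), Ptgr1 (chr4:58965590-58987131) and Nqo1 (chr8:107388225-107403205) with 20.1, 20.0 and 17.9 FPKM. Below these came Nqo2 (chr13:33964655-33988465) at 11.8 FPKM, Aox1 (chr1:58029809-58106410) at 3.28 FPKM and Akr1b3 (chr6:34303930-34317489) at 0.925 FPKM. The order was different in vehicle-treated BMDM, where Ugdh (13.7 FPKM) and Akr1b8 (11.99 FPKM) led. Cbr1 and Ptgr1 overlapped at 8.49 and 8.23 FPKM, and Nqo2 and Ephx1 followed at 5.48 and 4.68 FPKM. Cbr3 was at 1.44, Akr1b3 at 0.959, Nqo1 at 0.154 and Aox1 at 0.00798 FPKM. Nqo1 and Aox1 thus lay near 0 FPKM in these macrophages, while both were above 1 FPKM in every AHSC library. The place of Akr1b3 in both orders is uncertain, because 59.9% of its 50-base stretches also occur in other genes, mostly in the pseudogene Gm6644. Gm6644, named after its values were seen, was at 97.5 and 97.7 FPKM in vehicle-treated AHSC. In vehicle-treated BMDM it was at 56.5 and 54.0 FPKM. The tables were normalised separately and the cell types also differ in LPS and ATP. The AHSC cultures held macrophage transcripts as well. These levels are therefore set side by side without a test.

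**Figure D1:**
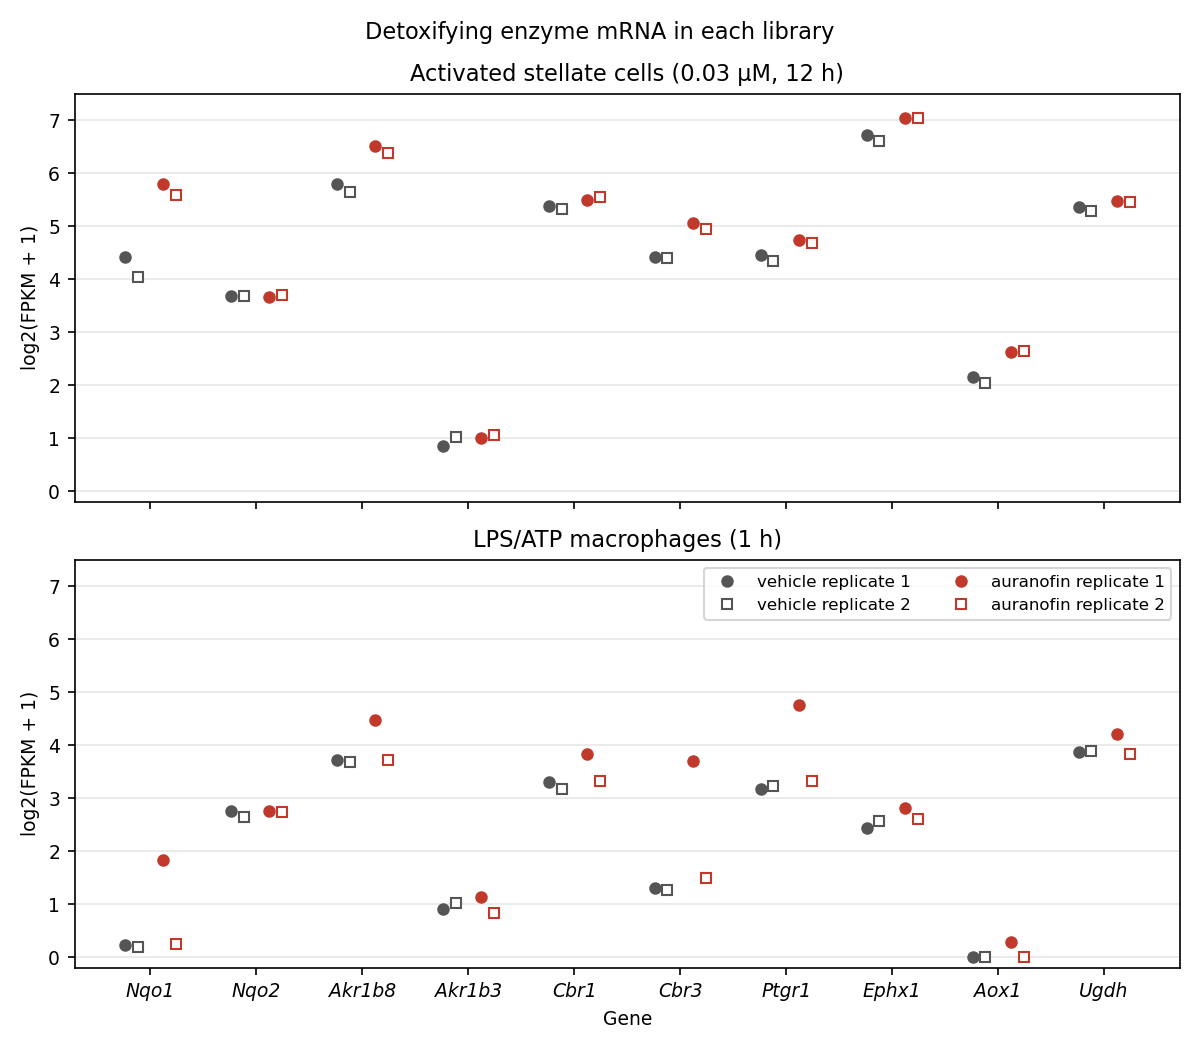
Level of each enzyme mRNA in every library on the log2(FPKM + 1) scale, with AHSC above and BMDM below; circles are replicate 1 and squares replicate 2, grey for vehicle and red for auranofin. In AHSC both red symbols of Nqo1, Akr1b8 and Cbr3 lie clearly above both grey ones, and in BMDM the red circle alone stands high for Cbr3, Ptgr1 and Nqo1.

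In AHSC, 1 quinone reductase (Nqo1), 1 aldo-keto reductase (Akr1b8) and 1 carbonyl reductase (Cbr3) rose past the thresholds with auranofin. A gene was counted as past the thresholds when its fold change on the log2(FPKM + 1) scale was at least 1.5 with an unadjusted p under 0.05 in limma, and a second count used a Benjamini-Hochberg adjusted p under 0.05 over all 12149 genes tested. Of the 10 enzymes, 9 were tested, because Akr1b3 had a mean under 1 FPKM. These were 3 of 9, all higher, against 0.428% of all genes tested. By the adjusted p alone 6 of 9 were higher, against 1.24% of all genes. Both auranofin libraries lay above both vehicle libraries for 8 of 9 enzymes, a pattern seen in 26.2% of all genes. Their median log2 fold change was 0.38, beside 0.00487 for all genes tested. The enzymes were chosen with earlier results of these data known, so these shares are description only and were not tested against each other. With 2 libraries a group, the smallest two-sided p of an exact permutation test is 0.333, so that the p-values rest on limma's pooled variance. In a bulk sample, more mRNA per cell and more cells that carry it cannot be told apart.

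Nqo1 changed most among the 9 tested. It was at 20.2 and 15.5 FPKM in the vehicle libraries and at 54.4 and 46.8 FPKM with auranofin. Both treated libraries were far above both controls, and the ratio of the means was 2.83. The log2 fold change was 1.46 (95% confidence interval 1.14 to 1.78, SE 0.13) with an adjusted p of 0.00845. Its relative Nqo2, which uses dihydronicotinamide riboside as the electron donor, gave a very different picture. Nqo2 was at 11.8 and 11.8 FPKM with vehicle and at 11.7 and 11.9 FPKM with auranofin, and the groups overlapped. Its log2 fold change was -0.00023 with an interval of -0.11 to 0.10 (adjusted p = 0.999). The level of Nqo1 relative to Nqo2 was thus 1.71 and 1.32 in the vehicle libraries against 4.66 and 3.93 in the auranofin libraries. The coding sequences of both genes are 61.1% identical over 691 aligned bases, and neither shared any stretch of 50 bases with another annotated gene.

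Among the aldo-keto reductases, Akr1b8, which reduces unsaturated aldehydes such as those from lipid peroxidation, rose. It was at 54.8 and 49.1 FPKM with vehicle and at 89.6 and 82.0 FPKM with auranofin. Neither treated library came near the vehicle range, and the log2 fold change was 0.71 (0.55 to 0.88, SE 0.07, adjusted p = 0.0101). Akr1b3, the aldose reductase that converts glucose to sorbitol, is its neighbour 36657 bases away. Akr1b3 was at 0.81 and 1.04 FPKM with vehicle and at 0.997 and 1.09 FPKM with auranofin, which overlap. Without the filter on low values its log2 fold change was 0.09 (-0.13 to 0.30). These low values cannot be read as the level of the enzyme's mRNA. Of the 1338 distinct 50-base stretches of the Akr1b3 transcript, 802 (59.9%) also occur in other annotated genes, 752 of them in Gm6644, a processed pseudogene on another chromosome. Gm6644, chosen for mention after its values were seen, was listed at 97.5 and 97.7 FPKM with vehicle and at 118.4 and 112.4 FPKM with auranofin (log2 fold change 0.24, adjusted p = 0.0434). How reads that fit both genes were divided is not given in the sources used here. For the other 9 enzymes the shared stretches made up between 0% and 4.40% of the transcript. Akr1b10, another close relative, named after its values were seen, that shares 31 of the 1309 stretches of Akr1b8, was at 26.1 and 26.0 FPKM with vehicle and at 25.5 and 24.9 FPKM with auranofin (log2 fold change -0.05, adjusted p = 0.553).

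Both carbonyl reductases lie on chromosome 16, 72870 bases apart, and their coding sequences are 77.8% identical over 829 aligned bases. Cbr3 was at 20.2 and 20.0 FPKM with vehicle and at 32.2 and 30.0 FPKM with auranofin. Its vehicle libraries were nearly identical, and both treated libraries were higher, with a log2 fold change of 0.60 (0.49 to 0.72, SE 0.05, adjusted p = 0.00606). This is close to the threshold of 1.5-fold, and without auranofin replicate 1 the log2 fold change of Cbr3 was 0.55, below it. Cbr1, the broader enzyme that also reduces prostaglandins and many drugs, was at 40.4 and 38.9 FPKM with vehicle and at 44.0 and 45.9 FPKM with auranofin. The groups did not overlap, but the log2 fold change was 0.18 (0.08 to 0.28) and the adjusted p 0.103. The level of Cbr3 relative to Cbr1 was 0.501 and 0.514 with vehicle against 0.731 and 0.653 with auranofin.

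Of the remaining enzymes, 3 had an adjusted p under 0.05 without reaching 1.5-fold. Ephx1 was at 103.7 and 96.6 FPKM with vehicle and at 131.3 and 130.7 FPKM with auranofin, a log2 fold change of 0.38 (0.28 to 0.49, adjusted p = 0.0158). The enzyme with the highest listed value thus rose in both treated libraries, with a ratio of the means of 1.31. Aox1 was at 3.46 and 3.09 FPKM with vehicle and at 5.16 and 5.24 FPKM with auranofin, which gave a log2 fold change of 0.54 (0.37 to 0.70, adjusted p = 0.0212). Because Aox1 is low, the pseudocount of 1 shrinks its change: the ratio of its mean FPKM was 1.59, and with a pseudocount of 0.1 the log2 fold change was 0.65, past 1.5-fold, as it was without vehicle replicate 1 (0.60). Ptgr1 was at 20.9 and 19.2 FPKM with vehicle and at 25.7 and 24.7 FPKM with auranofin, with a log2 fold change of 0.32 (0.19 to 0.45, adjusted p = 0.0469). Ugdh was at 39.9 and 37.8 FPKM with vehicle and at 43.6 and 42.7 FPKM with auranofin. Its groups were apart, but the log2 fold change was 0.15 (0.05 to 0.25) with an adjusted p of 0.153. The adjusted p-values varied with the fit. Over all genes, 2.33% had an adjusted p under 0.05 in either direction in the reported fit, and 0.263% with no filter on low values. With no filter, 1 of the 10 enzymes (Cbr3) kept an adjusted p under 0.05. Ptgr1, Ephx1 and Aox1 lost it without auranofin replicate 1, which left 1 treated library. Ptgr1 also lost it without vehicle replicate 2, without auranofin replicate 2 and with quantile normalization, Ephx1 and Ptgr1 lost it when limma's variance trend was left out, and Aox1 lost it without auranofin replicate 2.

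**Figure D2:**
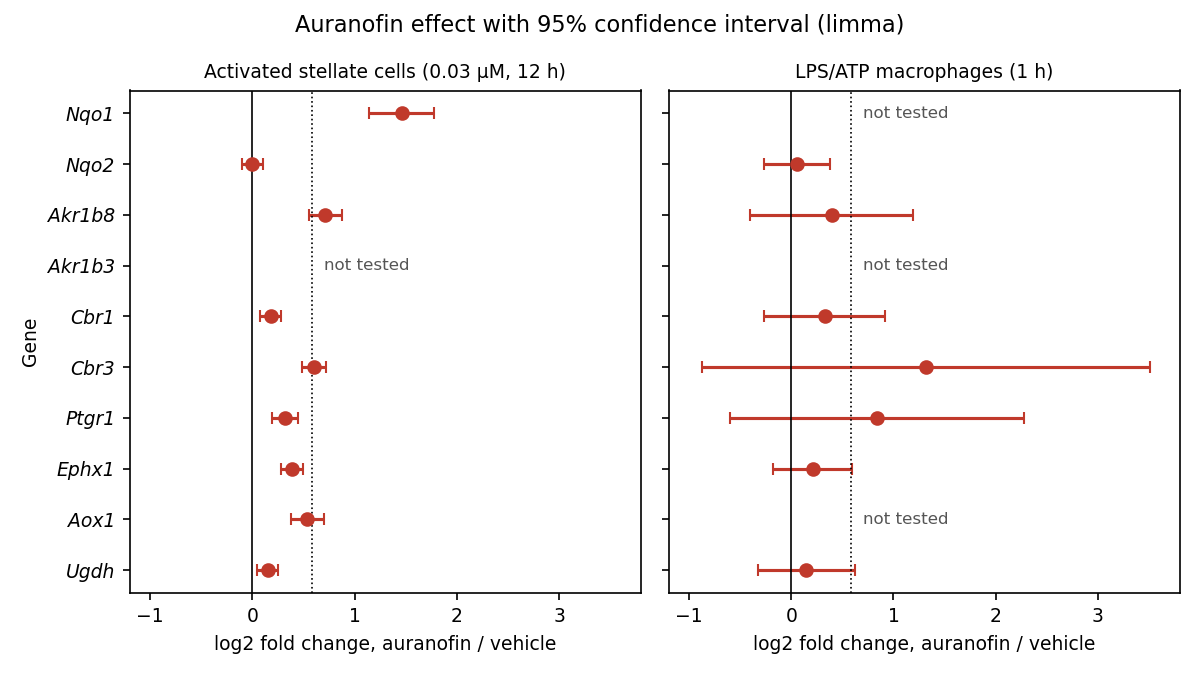
Log2 fold change of auranofin against vehicle with its 95% confidence interval from limma, for AHSC (left) and BMDM (right), n = 2 libraries per group; the solid line is no change and the dotted line 1.5-fold. In AHSC the intervals are narrow and that of Nqo1 lies at 1.14 to 1.78, whereas in BMDM the intervals of all 7 tested enzymes include 0.

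To show the DNA in front of the genes that moved together, the 250 bases before the RefSeq start site are printed for the 3 enzymes past the thresholds in AHSC, and for Ugdh, the only enzyme with the core letters of an antioxidant response element in its window. They are written 5′ to 3′ on the strand of the gene, from the RefSeq promoter table on GRCm38.p6, with motif letters in capitals. The positions are chr8:107403206-107403455 on the minus strand for Nqo1, chr6:34353896-34354145 on the plus strand for Akr1b8, chr16:93682969-93683218 on the plus strand for Cbr3 and chr5:65435843-65436092 on the minus strand for Ugdh.
Nqo1: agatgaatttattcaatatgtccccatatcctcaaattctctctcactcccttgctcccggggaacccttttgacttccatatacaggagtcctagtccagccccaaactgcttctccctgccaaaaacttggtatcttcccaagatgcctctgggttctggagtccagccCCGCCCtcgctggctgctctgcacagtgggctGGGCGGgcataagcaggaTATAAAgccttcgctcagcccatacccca
Akr1b8: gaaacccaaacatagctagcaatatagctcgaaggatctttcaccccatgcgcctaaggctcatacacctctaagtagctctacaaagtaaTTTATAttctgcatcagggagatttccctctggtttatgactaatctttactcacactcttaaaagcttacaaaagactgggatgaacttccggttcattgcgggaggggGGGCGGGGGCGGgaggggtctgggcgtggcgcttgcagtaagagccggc
Cbr3: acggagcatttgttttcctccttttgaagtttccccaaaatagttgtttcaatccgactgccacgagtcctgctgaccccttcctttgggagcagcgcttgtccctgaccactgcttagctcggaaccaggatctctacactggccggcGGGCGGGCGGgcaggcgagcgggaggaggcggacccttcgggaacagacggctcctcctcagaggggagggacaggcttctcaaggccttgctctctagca
Ugdh: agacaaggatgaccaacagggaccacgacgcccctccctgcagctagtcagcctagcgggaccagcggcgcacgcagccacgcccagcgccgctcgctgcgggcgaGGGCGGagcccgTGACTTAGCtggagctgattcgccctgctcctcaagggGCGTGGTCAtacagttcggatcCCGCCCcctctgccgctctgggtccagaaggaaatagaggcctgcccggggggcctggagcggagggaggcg
The search covered both strands of 300-base windows that reach from 250 bases before to 50 bases after the start site. Windows were found for 9 of the 10 enzymes, with 2 windows for Nqo2, and none for Akr1b3. The core of the antioxidant response element, TGACNNNGC, occurred in 12.4% of 32851 mouse promoter windows and in 1 of the 9 enzymes, Ugdh. Ugdh held it at -132 to -124 (TGACTTAGC) and, on the other strand, at -94 to -86 (GCGTGGTCA as printed). The GC box GGGCGG occurred in 35.7% of all windows and in 8 of the 9 enzymes, each with at least 2 copies; those of Cbr3 overlap each other. The TATA box TATAAA occurred in 13.6% of all windows and in 3 enzymes. It sat at -29 to -24 in Nqo1 and farther from the start site in the others. These were Akr1b8 at -159 to -154 on the other strand (TTTATA as printed) and Ephx1 at -214 to -209. The AP-1 letters TGACTCA occurred in 5.20% of all windows and in Aox1 alone, at -220 to -214. No motif overlapped a different motif in these windows. A match is only a run of letters, and the lack of one in these 300 bases says nothing of elements farther away.

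In BMDM exposed to auranofin for 1 h, limma put none of the enzymes past the thresholds. Of the 10, 7 were tested, because Nqo1, Akr1b3 and Aox1 had means under 1 FPKM, and the fit covered 9232 genes. Past the thresholds were 0 of 7, against 0.152% of all genes tested. An adjusted p under 0.05 was reached by 0 of 7 (0.0108% of all genes), and an unadjusted p under 0.05 by 0 of 7 (0.531% of all genes). All 7 log2 fold changes were above 0, as were 66.1% of those of all genes, and the median was 0.33 beside 0.09 for all genes tested. Centring the libraries on their medians moved the median of all genes from 0.09 to -0.00297 and that of the enzymes to 0.24, and the sign of Nqo2 then turned (-0.04). The auranofin libraries contributed very unequally. Relative to the mean of the vehicle libraries, the enzymes' median was 0.58 in auranofin replicate 1 (0.18 for all genes) and 0.07 in auranofin replicate 2 (0.00494 for all genes). On the log2(FPKM + 1) scale, 3 of 7 enzymes were at least 1.5-fold above the vehicle mean in auranofin replicate 1, against 15.2% of all genes, and 0 of 7 in auranofin replicate 2, against 0.379% of all genes.

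On the log2(FPKM + 1) scale, Cbr3, Nqo1 and Ptgr1 differed most between the auranofin libraries of BMDM. Cbr3 was at 1.48 and 1.40 FPKM with vehicle, at 12.1 FPKM in auranofin replicate 1 and at 1.84 FPKM in auranofin replicate 2. The first treated library was 8.39 times the vehicle mean and the second 1.27 times, and the log2 fold change of 1.32 had an interval of -0.87 to 3.51 (adjusted p = 0.721). The estimated fragments behind these values were 52, 45, 495 and 75. Scaled to FPKM, the counting interval of auranofin replicate 2 (1.45 to 2.32) overlapped that of vehicle replicate 1 (1.11 to 1.95). Such an overlap is not a test of a difference. Ptgr1 was at 8.05 and 8.40 FPKM with vehicle, at 26.1 FPKM in auranofin replicate 1 and at 9.02 FPKM in auranofin replicate 2. This was 3.17 and 1.10 times the vehicle mean, with a log2 fold change of 0.84 (-0.60 to 2.27, adjusted p = 0.721). Nqo1 was at 0.172 and 0.136 FPKM with vehicle, at 2.56 FPKM in auranofin replicate 1 and at 0.196 FPKM in auranofin replicate 2. In estimated fragments these are 8 (95% exact Poisson interval 3.45 to 15.8), 6 (2.20 to 13.1), 139 (116.9 to 164.1) and 11 (5.49 to 19.7), where the intervals cover counting error only. The first treated library was therefore above both vehicle libraries beyond counting error at 16.6 times their mean, and the second was not.

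Akr1b8 and Cbr1 showed the same split at a smaller size. Akr1b8 was at 12.1 and 11.8 FPKM with vehicle, at 21.2 FPKM in auranofin replicate 1 and at 12.1 FPKM in auranofin replicate 2 (log2 fold change 0.39, -0.40 to 1.19, adjusted p = 0.721). Cbr1 was at 8.90 and 8.07 FPKM with vehicle and at 13.2 and 8.96 FPKM with auranofin (0.33, -0.27 to 0.92, adjusted p = 0.721). In both genes the second treated library was within 1.06 times the vehicle mean. Ephx1, at 4.45 and 4.92 FPKM with vehicle against 6.07 and 5.12 FPKM in the treated libraries, had a log2 fold change of 0.21 (-0.17 to 0.60). Ugdh, at 13.5 and 13.9 FPKM with vehicle against 17.6 and 13.3 FPKM in the treated libraries, had one of 0.15 (-0.33 to 0.62) and overlapped between groups. Nqo2 was at 5.74 and 5.23 FPKM with vehicle and at 5.73 and 5.71 FPKM with auranofin, and was the enzyme on which the auranofin libraries agreed most closely (0.05, -0.27 to 0.38). Akr1b3, with the same doubt as above, was at 0.889 and 1.03 FPKM with vehicle and at 1.20 and 0.789 FPKM with auranofin. Aox1 rested on an estimated 1 fragment in each vehicle library, 34 (23.6 to 47.5) in auranofin replicate 1 and 0 in auranofin replicate 2, where a count of 0 allows up to 3 fragments.

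**Figure D3:**
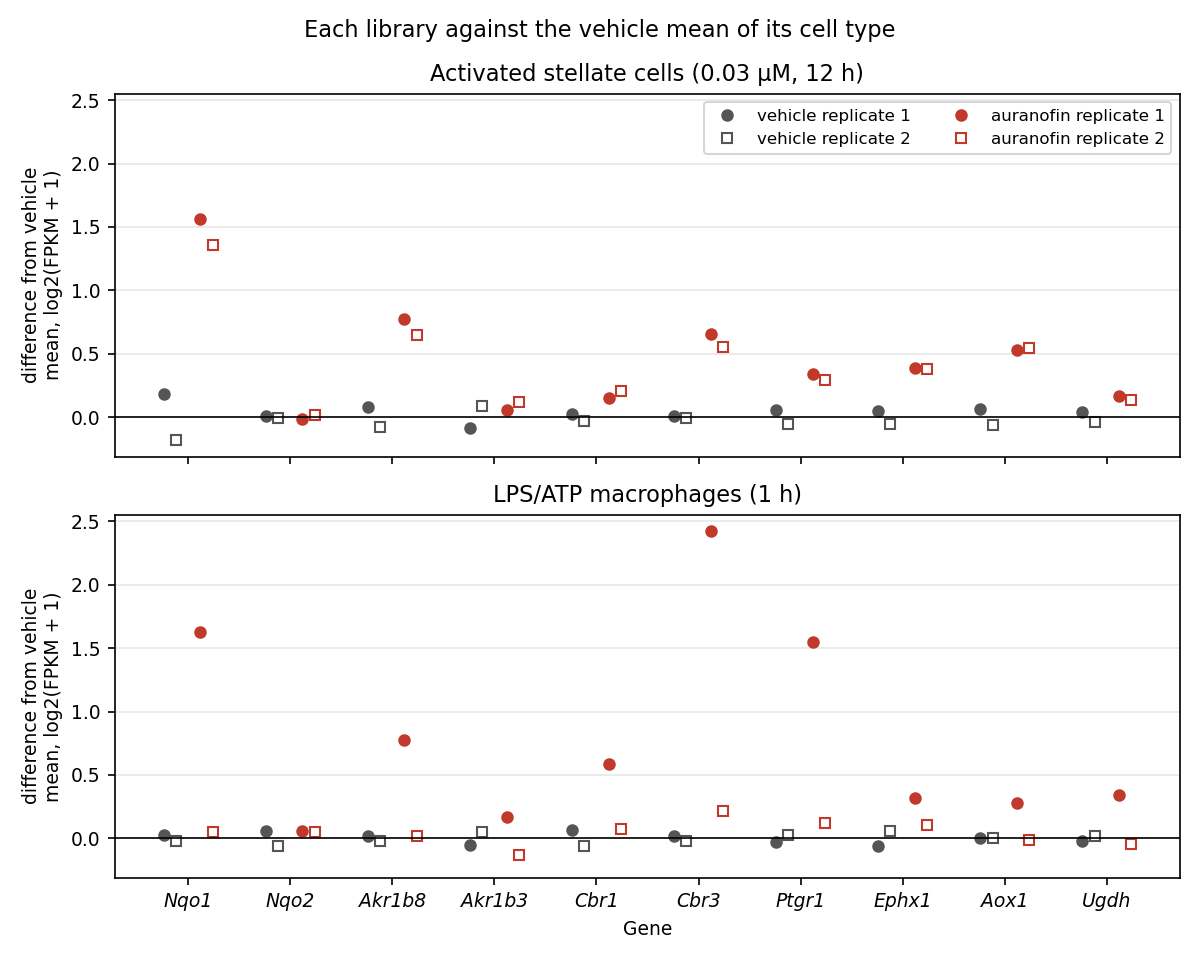
Difference of each library from the vehicle mean of its own cell type on the log2(FPKM + 1) scale, AHSC above and BMDM below; circles are replicate 1, squares replicate 2, grey vehicle and red auranofin. In AHSC both auranofin libraries move by like amounts, for Nqo1 by 1.57 and 1.35, whereas in BMDM the difference for Cbr3 is 2.42 in auranofin replicate 1 but 0.22 in replicate 2.

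The calls in BMDM changed when auranofin replicate 2 was left out. Without auranofin replicate 2, 3 of 7 enzymes were past the thresholds, namely Cbr3 (log2 fold change 2.42), Ptgr1 (1.55) and Akr1b8 (0.77), but 2122 of the 9232 genes tested (23.0%) were then past the thresholds too. An adjusted p under 0.05 was then reached by 6 of 7, and by 5997 of the 9232 genes (65.0%). Without auranofin replicate 1, 0 of 7 were past the thresholds or under an adjusted p of 0.05, as with all libraries, and the median of the 7 was 0.07. In these fits the lone auranofin library is assumed to vary like the vehicle pair. What set the auranofin libraries of BMDM apart was not tested. The response in AHSC and that in BMDM were not tested against each other, since dose, time and stimulation differ.

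Relative levels of the paired enzymes in BMDM followed the same split. Nqo1 relative to Nqo2 was 0.0300 and 0.0261 with vehicle, 0.446 in auranofin replicate 1 and 0.0343 in auranofin replicate 2. Cbr3 relative to Cbr1 was 0.166 and 0.174 with vehicle, 0.916 in auranofin replicate 1 and 0.205 in auranofin replicate 2. Since both members of a pair are read from the same library, these ratios do not depend on the scaling of that library. In the library that stood apart, Nqo1 and Cbr3 were therefore higher relative to their relatives, as they were in both auranofin libraries of AHSC.

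The wider class of enzymes that handle such substrates was examined in AHSC for comparison. A list of 104 other genes for quinone and enone reductases, carbonyl and aldo-keto reductases, aldehyde and alcohol dehydrogenases, epoxide hydrolases, molybdenum enzymes, glucuronidation and sulfation had 58 tested members. Past the thresholds was 1 of the 58, against 0.428% of all genes for a rise: Blvrb, the biliverdin and flavin reductase, at 148.4 and 147.3 FPKM with vehicle and at 276.9 and 267.4 FPKM with auranofin (log2 fold change 0.88, SE 0.03, adjusted p = 0.00132). An adjusted p under 0.05 was reached by 6 of 58, all higher, against 1.24% of all genes. The other five, chosen for mention after their values were seen, were the aldo-keto reductase Akr1c13 (log2 fold change 0.52), the UDP-glucuronosyltransferase Ugt1a7c (0.42), the cytochrome P450 reductase Por (0.30), the mitochondrial aldehyde dehydrogenase Aldh2 (0.28) and the aldehyde reductase Akr1a1 (0.23). Genes of the Ugt1a cluster share exons, so that the value of Ugt1a7c is uncertain. The median of the 58 was 0.05, with 37 above and 21 below 0. Of all 12149 genes tested, 6346 were above 0. By group, 10 of 11 quinone and enone reductases were above 0 (median 0.06), 11 of 16 carbonyl and aldo-keto reductases (0.08), 8 of 16 aldehyde and alcohol dehydrogenases (-0.0016), 4 of 7 glucuronidation genes (0.10) and 3 of 5 molybdenum enzymes (0.05). Among sulfation genes 1 of 2 was above 0, and the one epoxide hydrolase tested besides Ephx1 was at -0.07. Thus 3 of 9 enzymes of the set were past the thresholds against 1 of 58 in the wider class, a difference that was not tested because the set was named with results of these data known.

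In BMDM 47 of the 104 were tested, and limma put 0 past the thresholds, 0 under an adjusted p of 0.05 and 1 under an unadjusted p of 0.05. That gene was Dhrs7b, a short-chain dehydrogenase, named after its values were seen. It was at 2.73 and 2.85 FPKM with vehicle and at 5.42 and 3.84 FPKM with auranofin, a log2 fold change of 0.56 with an adjusted p of 0.721. The median of the 47 was 0.13, beside 0.23 for auranofin replicate 1 alone and 0.02 for auranofin replicate 2 alone. Blvrb was again unequal, at 106.9 and 101.4 FPKM with vehicle, 251.3 FPKM in auranofin replicate 1 but 100.3 FPKM in replicate 2.

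**Figure D4:**
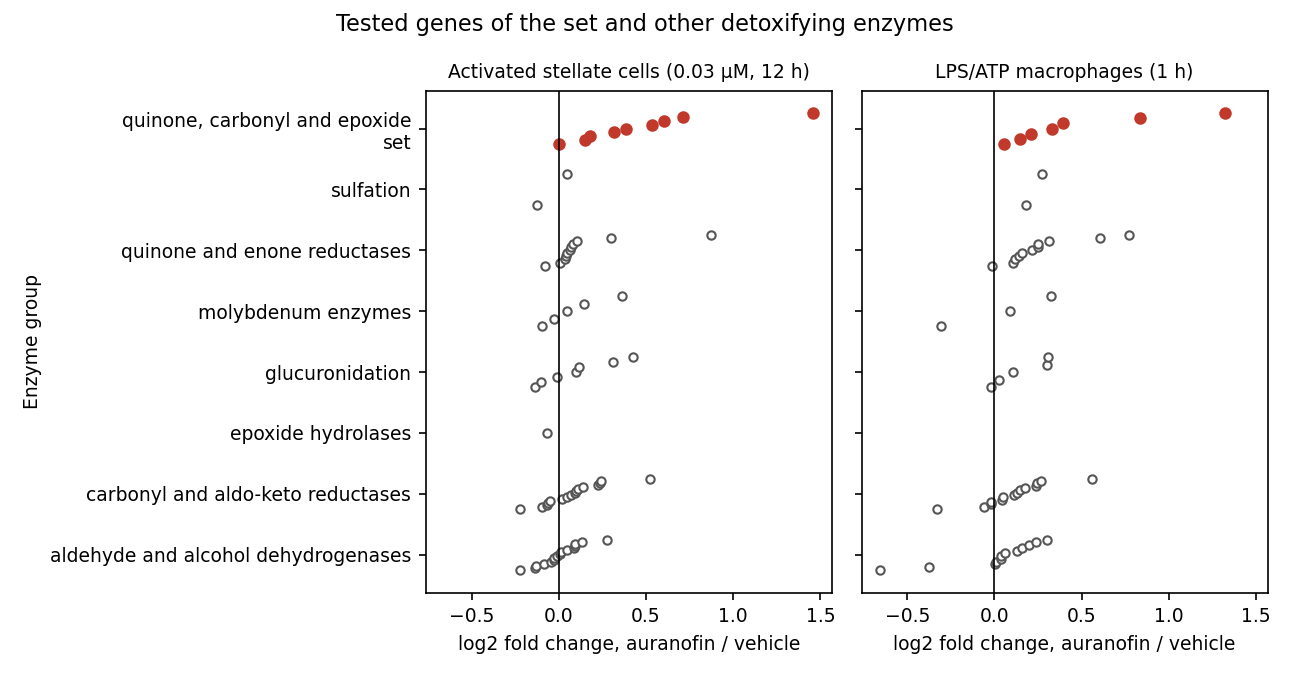
Log2 fold change of every tested gene, 1 point each, for the quinone, carbonyl and epoxide set (red, top row) and the 7 groups of other detoxifying enzymes (open), AHSC left and BMDM right, with points spread vertically within a row only to separate them. In AHSC the points of the other groups lie between -0.22 and 0.88, with Blvrb at the far right.

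Over all 8 libraries, the genes whose pattern was most like that of Nqo1 were sought among the 8963 genes tested in both tables, Nqo1 itself being too low in BMDM to be tested. Each gene was expressed as 8 differences from the vehicle mean of its own table on the log2(FPKM + 1) scale, and likeness was the Euclidean distance between these differences. The nearest was A530064D06Rik (distance 0.395), followed by Prdx1 (0.882), which encodes a peroxiredoxin, Esd (0.926), which encodes esterase D, Cat (0.929), which encodes catalase, and Blvrb (0.949). In AHSC, Nqo1 differed from the vehicle mean by 1.57 and 1.35 in the auranofin libraries, A530064D06Rik by 1.29 and 1.16 and Prdx1 by 1.05 and 0.97. In BMDM, the differences in auranofin replicates 1 and 2 were 1.62 and 0.05 for Nqo1, 1.55 and -0.03 for A530064D06Rik, 2.20 and 0.05 for Prdx1, 1.72 and 0.04 for Esd, 2.19 and -0.07 for Cat and 1.26 and -0.05 for Blvrb. These genes were near 0 in the second auranofin library of BMDM and high in the first, which follows from their selection for likeness to Nqo1. The pseudocount of 1 shrinks the difference of Nqo1 in BMDM, where its vehicle mean was 0.154 FPKM. In auranofin replicate 1 Nqo1 was at 16.6 times that mean. The likeness therefore holds on the log2(FPKM + 1) scale only, and the BMDM differences do not rank the genes by fold change. The measure is dominated by the few libraries in which Nqo1 is far from vehicle, and no p-value is attached to it.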

How the data were processed

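Total RNA of 8 libraries was made into libraries with a stranded mRNA kit. According to the submitters' processing notes the tools were CASAVA, FastQC 0.11.7, Trimmomatic 0.38, HISAT2 2.1.0 and StringTie 1.3.4d, with build mm10, and the authors deposited FPKM values, 1 table for each cell type. The tables hold no read counts, so count tests were not used. Groups and replicate numbers came from the sample labels, and columns were matched to samples by name.

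Each table was fitted alone. Deposited FPKM were transformed to log2(FPKM + 1), genes whose mean over the 4 libraries reached 1 FPKM were kept, and limma 3.58.1 in R 4.3.3 (lmFit, eBayes with trend) compared auranofin with vehicle, with Benjamini-Hochberg adjustment over all genes tested. Fold changes on this scale understate the change of low genes. All 10 enzymes were named. Of the other detoxifying enzymes those past the thresholds were named, at most 5 in each direction and cell type, with the 5 genes most like Nqo1. Other names are marked. The genes and lists were chosen with earlier results of these data known, so no test of a list was run.

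Depth was estimated from values under 0.2 FPKM and GENCODE transcript lengths. Fragment intervals are exact Poisson intervals (95%), except that a count of 0 was given a fixed upper limit of 3 fragments. The RefSeq gene table matched 18601 of 18645 AHSC and 17371 of 17408 BMDM identifiers. Alternatives were a pseudocount of 0.1, no filter, a mean of at least 5 FPKM, median centring, quantile normalization, eBayes without trend, the replicate number as a block, and each library left out in turn. Python 3.11.15, pandas 2.3.3, numpy 2.4.6, scipy 1.17.1, Biopython 1.88 and matplotlib 3.10.9 were used. Protein sequences were not used here.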

Additional observations from a re-analysis of the deposited data

How the results depend on the processing

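The count of enzymes past the thresholds in AHSC was 3 in the reported fit and 2 to 4 with a library left out, and their median log2 fold change stayed between 0.33 and 0.43 over all 11 alternatives. The count with an adjusted p under 0.05 was 6, beside 2.33% of all genes in either direction. With no filter on low values (18645 genes tested) it was 1, beside 0.263% of all genes, and the cause was not tested. It was 4 with no variance trend (1.06% of all genes) and 5 with quantile normalization (2.21%). It also fell without vehicle replicate 2 and without either auranofin replicate, most without auranofin replicate 1. Among the other detoxifying enzymes 1 was past the thresholds in AHSC, and 1 to 2 with a library left out, 2 without vehicle replicate 1. In BMDM the counts of 0 became 0 to 3 (past the thresholds) and 0 to 6 (adjusted p) with a library left out, the highest without auranofin replicate 2. For the other enzymes of BMDM the count was 0 to 8 with a library left out, 8 without auranofin replicate 2, and 1 with a pseudocount of 0.1. Without auranofin replicate 2, which left 1 treated library, the shares of all genes under both rules rose steeply as well, as given above. Whether the enzymes rose beyond all genes in that setting was not tested. The median of the 7 tested enzymes in BMDM was 0.07 without auranofin replicate 1 (0.00494 for all genes) but 0.58 without auranofin replicate 2 (0.18 for all genes).

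Replicate numbers are shared between groups, but nothing in the labels says that they pair the samples. The deviations of same-numbered libraries from their group means correlated at 0.11 over genes in AHSC and at -0.06 in BMDM. With the replicate block, 3 enzymes were past the thresholds and 6 had an adjusted p under 0.05 in AHSC, as without it, and in BMDM 0 and 0. Over all genes the block moved the number past the thresholds from 70 to 75 in AHSC and from 14 to 42 in BMDM.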
